A study of Mus musculus with 6 samples.

Results

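Transforming growth factor beta (TGF-beta) signalling genes were followed in common myeloid progenitors of the mouse fetal liver. The 10 genes are the ligand Tgfb1, the latency protein Ltbp1, the receptors Tgfbr1 and Tgfbr2, the co-receptors Tgfbr3 and Eng, and the signal transducers Smad2, Smad3, Smad4 and Smad7. They were picked by symbol from the 24815 Ensembl identifiers of the files, and all 10 were found and passed the filter on low counts. The choice was made with the wild type against mutant result of these libraries known. Their differences between genotypes are therefore given as a description, without a test.

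RNA was sequenced from 6 libraries of C57BL/6 embryos at E13.5 (embryonic day), 3 per genotype, with no treatment. Wild-type libraries are labelled A, F and L. Mutant libraries C, D and Q are -77-/-, that is, homozygous for loss of the -77 enhancer, a regulatory element that lies upstream of Gata2 and takes its name from its distance in kilobases. In both genotypes the sorted cells were CD34+ and c-kit+, low for Fc receptor, and negative for Sca-1, CD41, CD48 and the markers of mature blood lineages. The labels do not say whether libraries came from separate or pooled embryos, so the spread and p-values below describe these libraries only. In bulk RNA, fewer cells of a type and less RNA per cell cannot be told apart.

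TGF-beta is secreted in a latent form, wrapped in its own propeptide and usually tethered to a carrier. LTBP proteins anchor the complex in the matrix, while LRRC32 and NRROS hold it at cell surfaces. Integrins and thrombospondin can release the ligand. The freed ligand joins the type II receptor TGFBR2 to the type I receptor TGFBR1, which phosphorylates SMAD2 and SMAD3. These pair with SMAD4 and act in the nucleus, and SMAD7 feeds back on the receptor. In blood formation the pathway is known for restraining the division of stem and progenitor cells and for the latent ligand stored in platelets.

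The libraries held 14473913 to 30596279 expected counts. Gata2 stood at 57.4 to 78.6 CPM (counts per library of equal size, after TMM scaling) in wild type. In the mutant it stood at 8.92 to 17.8 CPM, below every wild-type library. By edgeR the fall of Gata2 was not called with all libraries (4.59-fold lower, adjusted p = 0.068). It was called without mutant C (3.91-fold lower, adjusted p = 0.0019). A gene not called with all libraries is therefore not shown to be unchanged. All 8 common myeloid progenitor markers listed were above 1 TPM (transcript abundance corrected for gene length) in wild type, led by Mpo, Cd34 and Spi1. Their summed level was 3090 to 4410 TPM in wild type, 3040 and 3440 TPM in mutants Q and D, and 1030 TPM in mutant C. Mpo made most of the sum, at 1672 to 2923 TPM in wild type. In CPM, Kit and Myb were below wild type in every mutant library, and Cd34 and Spi1 above. By edgeR 0 of the 8 were called with all libraries. Without mutant C only Myb was (log2 change, mutant against wild type, -0.575, adjusted p = 0.02). The TMM factor was 0.614 for mutant C and 1.055 to 1.171 for the other libraries. Deposited TPM is not TMM-scaled, so a TPM sum can be low in mutant C where CPM values are not. Mutant C also stood apart from the other mutants by gene length. Its log2 CPM minus the mean of D and Q had a median of -1.04 over 2927 genes longer than 4000 bases and of 1.26 over 2537 genes shorter than 1500 bases. Many genes described here are longer than 4000 bases, and some shorter ones were also low in mutant C. Values are therefore given with and without mutant C.

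Ltbp1 was almost absent from the mutant. Ltbp1 encodes latent TGF-beta binding protein 1, which carries and anchors the latent ligand. It held 151, 62.0 and 103 expected counts in wild type A, F and L, and 0, 1.96 and 1 in mutants C, D and Q. Scaled to CPM, these were 6.00, 3.91 and 6.10 in wild type against 0, 0.0956 and 0.0310 in the mutant. The groups did not overlap, and each mutant library held fewer than 3 counts. The 0 counts of mutant C allow a level of up to 0.330 CPM, still below the lowest wild-type library. Pooled over libraries, 316 counts in wild type stood against 3 in the mutant, a ratio of 113 with an exact 95% counting interval of 38.4 to 552. Without mutant C the ratio was 96.7 (32.8 to 472). The interval covers counting error only. In deposited TPM the gene stood at 1.92 ± 0.513 in wild type (SD, n = 3) and at 0, 0.06 and 0.02 in mutants C, D and Q.

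In wild type, RSEM assigned part of the Ltbp1 transcripts to the upstream of its start sites. The gene lies on chromosome 17 from 75005568 to 75392512, plus strand (GENCODE M21, mm10), and its exons overlap those of no other annotated gene. The files list 4 transcripts for it, of 6671, 5140, 4870 and 3114 bases in that annotation. Only the 6671-base transcript begins at the upstream start, and it encodes the long form of the protein. The deposited gene length, which RSEM weights by transcript share, was 5524, 5523 and 5478 bases in wild type A, F and L. If the files used these transcript lengths, a mean above 5140 bases needs the longest transcript. Its share is then no less than 22.1% to 25.1% of Ltbp1 molecules. In mutants D and Q the length was 3114 bases, which rests on the 1 to 2 reads left there. In mutant C it was 4949 bases, which equals the plain mean of the 4 transcripts, with no reads behind it.

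The windows around both Ltbp1 starts are shown because Ltbp1 differed most of the 10 genes between the genotypes and the deleted enhancer belongs to a GATA factor gene. They are RefSeq windows on GRCm38.p6, from 250 bases before to 50 bases after the start, written along the plus strand with GATA or its reverse complement TATC in capitals.
Upstream start, chr17:75005279-75005578: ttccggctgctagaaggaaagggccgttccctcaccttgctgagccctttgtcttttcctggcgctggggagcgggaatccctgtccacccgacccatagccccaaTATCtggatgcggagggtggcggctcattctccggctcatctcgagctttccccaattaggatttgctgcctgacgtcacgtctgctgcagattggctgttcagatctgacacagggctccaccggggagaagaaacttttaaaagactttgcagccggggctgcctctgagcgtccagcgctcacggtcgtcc
Downstream start, chr17:75178531-75178830: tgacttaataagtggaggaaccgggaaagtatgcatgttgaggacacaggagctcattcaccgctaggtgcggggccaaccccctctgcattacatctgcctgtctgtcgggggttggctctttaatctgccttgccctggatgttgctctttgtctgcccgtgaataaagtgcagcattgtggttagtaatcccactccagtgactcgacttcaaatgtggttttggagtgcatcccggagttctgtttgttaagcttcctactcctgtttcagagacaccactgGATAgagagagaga
Each window holds the GATA letters once, as do 57.9% of 32851 promoter windows at least once on either strand. The longer GATA factor motif, GATA with A or T before it and A or G after it, on either strand, is in 29.8% of all windows and in 0 of the 8 windows listed for 6 of the genes (Ltbp1, Tgfb1, Tgfbr1, Tgfbr2, Eng and Smad3). A missing match says only that these letters are not in these windows.

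The ligand Tgfb1 was the most abundant of the 10 genes in every library but mutant C. It stood at 164, 113 and 120 TPM in wild type A, F and L and at 104 and 94.8 TPM in mutants D and Q, with 15.4 TPM in mutant C. In CPM it was 165, 128 and 139 in wild type and 51.5, 119 and 121 in C, D and Q. The groups did not overlap, but D and Q lay within 10 CPM of wild type F. The log2 change was -0.57 (standard error 0.34) with all libraries and -0.28 (0.12) without mutant C. Tgfb1 lies on chromosome 7 from 25687002 to 25705077. The other TGF-beta ligands were near 0: Tgfb2 reached 0.11 TPM and Tgfb3 0.08 TPM in any library. Ligand transcript thus stayed at a high level in D and Q, where Ltbp1 was nearly gone.

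**Figure D1:**
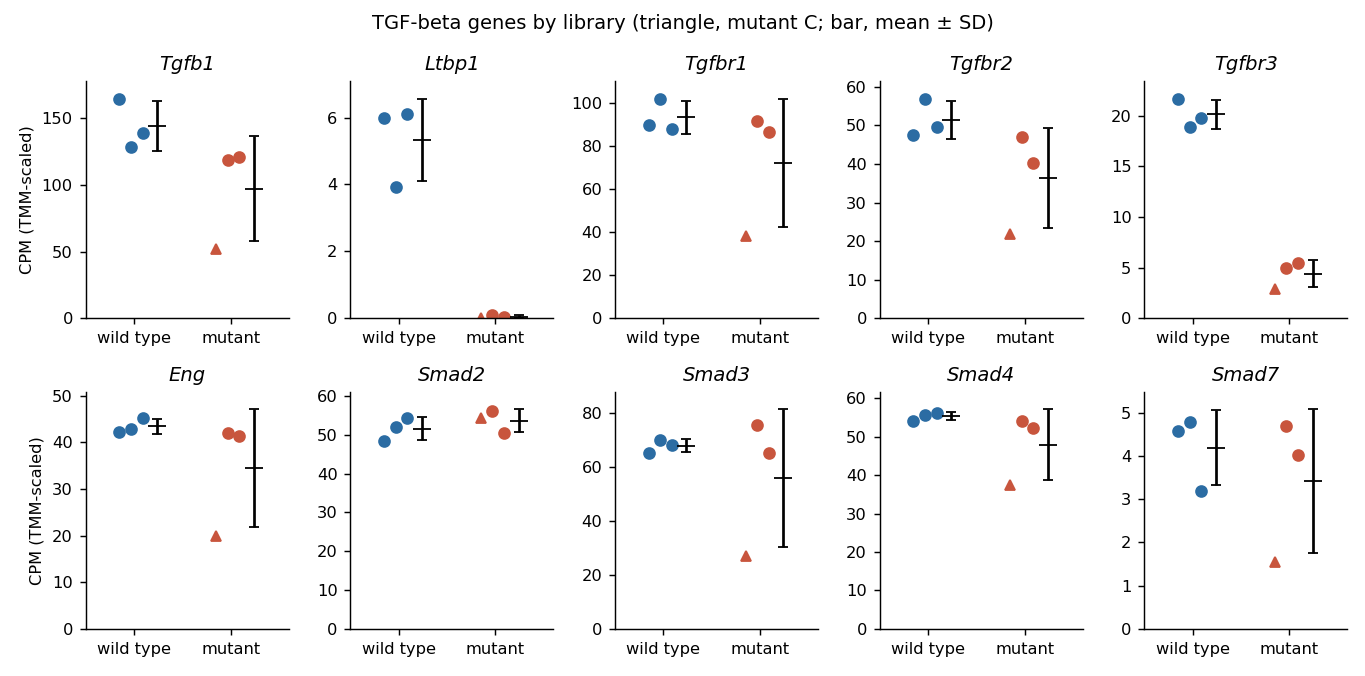
TMM-scaled CPM of the 10 TGF-beta genes in each library, on linear axes. Blue points are wild type A, F and L, red points mutants C (triangle), D and Q, and black bars the mean and SD of 3 libraries. Ltbp1 and Tgfbr3 sit far below wild type in all 3 mutant libraries, whereas for the other genes D and Q sit near wild type and mutant C, except for Smad2, sits lower.

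Tgfbr3 showed the other clear gap between genotypes. It encodes betaglycan, a co-receptor that binds TGF-beta and inhibin and presents ligand to TGFBR2. It stood at 21.7, 18.9 and 19.8 CPM in wild type A, F and L and at 2.86, 4.92 and 5.46 CPM in mutants C, D and Q. Every mutant library was below every wild-type library, and the highest mutant value was less than 30% of the lowest wild-type value. The log2 change was -2.16 (standard error 0.26), 4.48-fold lower, and -1.96 (0.13), 3.90-fold lower, without mutant C. The gene lies on chromosome 5 from 107106570 to 107289629 on the minus strand. The deposited length was 6087 bases in all 6 libraries. That is the length of the longer of its 2 transcripts in GENCODE M21, which assigns all reads to it. Annotated exons of Gm43422 overlap 297 bases of Tgfbr3 on the same strand, so reads there are uncertain.

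The gap in Tgfbr3 was also seen against the co-receptor beside it. Endoglin (Eng), which binds ligand together with TGFBR2 and is known from endothelium and stem cells, stood at 42.2, 42.9 and 45.2 CPM in wild type and at 19.8, 42.0 and 41.4 CPM in mutants C, D and Q. Mutants D and Q were thus below the lowest wild-type library by less than 1 CPM. The ratio of Tgfbr3 to Eng in TPM was 0.218, 0.199 and 0.184 in wild type and 0.0583, 0.0511 and 0.0565 in C, D and Q. This within-library ratio does not depend on scaling and was nearly the same in mutant C as in the other mutants. It is not free of the gene length bias of mutant C, since Tgfbr3 is the longer gene. For C against D and Q, a smooth trend on length gave -1.07 for Tgfbr3 and -0.08 for Eng. The measured values were -0.83 and -1.07, so the near match in mutant C goes with a low Eng there. Exons of Fpgs overlap 61 bases of Eng on the opposite strand. Eng lies on chromosome 2 from 32646595 to 32682669.

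The signalling receptors Tgfbr1 and Tgfbr2 differed little once mutant C was set aside. Tgfbr1, the kinase that phosphorylates SMADs, stood at 89.8, 102 and 88.1 CPM in wild type against 38.0, 91.8 and 86.3 CPM in mutants C, D and Q, and the groups overlapped. Its log2 change was -0.37 (standard error 0.34) with all libraries and -0.07 (0.09) without mutant C. Tgfbr2, the ligand-binding kinase, stood at 47.6, 56.9 and 49.5 CPM in wild type against 21.9, 47.0 and 40.3 CPM in mutants C, D and Q. Mutant D was below the lowest wild-type library by less than 1 CPM. Its log2 change was -0.49 (0.29), and -0.24 (0.10) without mutant C. The ratio of Tgfbr2 to Tgfbr1 in TPM was 0.483, 0.603 and 0.598 in wild type and 0.614, 0.554 and 0.505 in mutants C, D and Q, so the ranges overlapped.

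Transcript choice within Tgfbr2 was nearly the same in all libraries. The files list 2 transcripts, of 3476 and 8092 bases in GENCODE M21. If the files used these lengths, the longer made 27.1% to 27.6% of molecules in wild type and 27.1% to 27.4% in the mutant. For Tgfbr1 the length was 4303 bases in wild type A and 5035 to 5123 bases in the other 5 libraries. The TPM of Tgfbr1 in wild type A, the highest at 45.0, is therefore computed over a shorter transcript mix than elsewhere. Tgfbr1 lies on chromosome 4 from 47353222 to 47414931 and Tgfbr2 on chromosome 9 from 116084293 to 116175360.

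The SMAD transcripts of mutants D and Q were close to wild type, with log2 changes between -0.06 and 0.04. Smad2, a receptor-activated transducer, had 48.4, 52.0 and 54.3 CPM in wild type against 54.4, 56.2 and 50.5 CPM in mutants C, D and Q, with a log2 change of 0.06 (standard error 0.14). It was the only gene of the 10 whose CPM in mutant C was not below wild type. Smad3, the other receptor-activated transducer, had 65.3, 70.2 and 68.2 CPM in wild type, 75.4 and 65.3 CPM in D and Q, and 27.0 CPM in C. Without mutant C its log2 change was 0.04 (0.09). The Smad3 to Smad2 ratio in TPM ran from 0.588 to 0.601 over the wild-type libraries. It was 0.558 for D and 0.563 for Q, just under that range, and 0.213 for C, far under it. The gene length bias of mutant C enters this ratio, since Smad3 is the longer gene. For C against D and Q, a smooth trend on length gave -0.87 for Smad3 and 0.15 for Smad2. The measured values were -1.38 and 0.03.

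Smad4, the partner shared by all receptor-activated SMADs, had 54.2, 55.6 and 56.3 CPM in wild type against 37.4, 54.2 and 52.3 CPM in mutants C, D and Q. Without mutant C its log2 change was -0.06 (standard error 0.07). Smad7, the inhibitory SMAD that the pathway itself induces, had 4.57, 4.79 and 3.20 CPM in wild type against 1.54, 4.69 and 4.03 CPM in mutants C, D and Q. Its values in D and Q lay inside the wild-type range, and its log2 change without mutant C was 0.04 (0.23). At 54.0 to 130 expected counts outside mutant C, Smad7 is the least precisely measured of the SMADs. Smad2, Smad4 and Smad7 lie on chromosome 18 and Smad3 on chromosome 9.

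**Figure D2:**
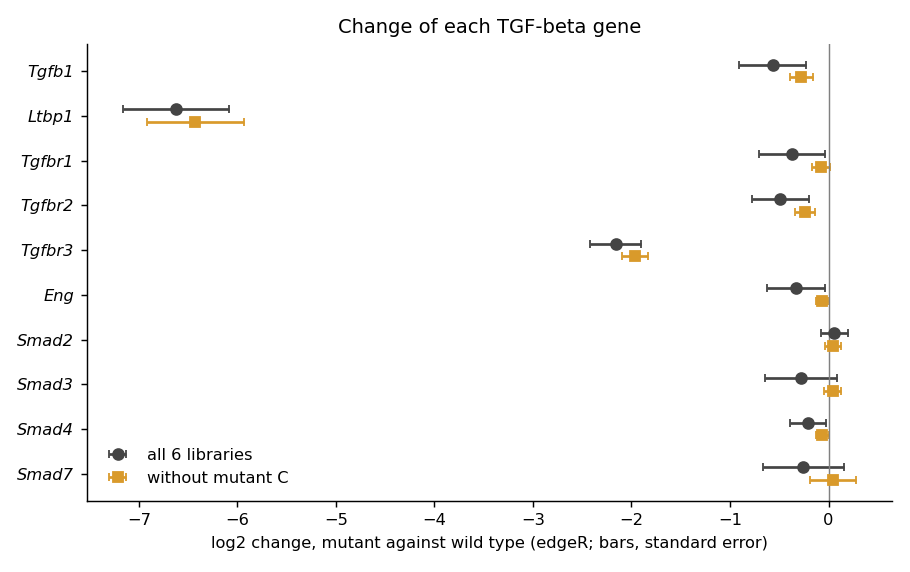
Log2 change of each gene, mutant against wild type, from edgeR's fit over all genes, with bars for the standard error. Circles use all 6 libraries and squares leave out mutant C. Ltbp1 (-6.62 and -6.43, fitted values that depend on the prior count) and Tgfbr3 (-2.16 and -1.96) lie far left, and the other 8 genes lie between -0.57 and 0.06.

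Over all genes, edgeR's fit gave 19 of 12222 (0.155%) an adjusted p under 0.05, 18 of them lower (0.147%). Without mutant C, 106 of 12614 genes passed (0.84%), 96 of them lower (0.761%), and 0 passed when any 1 of the other 5 libraries was left out. No call is given for the 10 genes, whose choice used this contrast. All mutant libraries lay below all wild-type libraries for 6 of the 10 genes (Ltbp1, Tgfb1, Tgfbr2, Tgfbr3, Eng and Smad4), against 11.4% of all genes tested. Mutants D and Q both lay below wild type for the same 6, against 14.6% of genes. For the same reason nothing is read from these counts. Their median log2 change was -0.35, and -0.07 without mutant C, beside medians of -0.02 and -0.01 over all genes tested.

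Levels in wild type, in TPM, ran from Tgfb1 (113 to 164) through Smad2 (44.7 to 47.4), Tgfbr1 (32.6 to 45.0), Smad4 (31.2 to 34.7), Eng (29.8 to 35.1), Smad3 (26.3 to 28.2), Tgfbr2 (19.5 to 22.9), Tgfbr3 (5.92 to 7.66) and Smad7 (2.25 to 4.06) to Ltbp1 (1.35 to 2.34). Ranges overlapped between the neighbours Smad2 and Tgfbr1, Tgfbr1 and Smad4, Smad4 and Eng, and Smad7 and Ltbp1. The other neighbours did not overlap. So the genes that differed most between genotypes, Ltbp1 and Tgfbr3, were among the 3 least abundant.

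**Figure D3:**
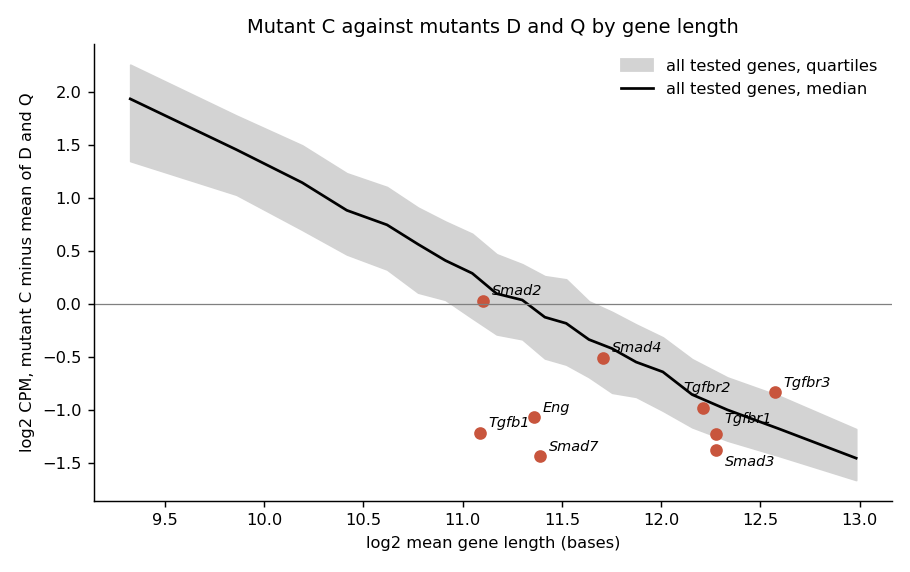
Log2 CPM of mutant C minus the mean of D and Q against log2 mean gene length, with the median (line) and quartiles (grey) of all tested genes in 20 bins. Red points are 9 of the TGF-beta genes; Ltbp1 is left out because it holds 0 to 2 counts there. Smad7, Smad3, Tgfb1 and Eng lie below the grey band, at -1.44, -1.38, -1.21 and -1.07.

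In mutant C some of these genes followed other genes of their length and some lay lower. Against D and Q, a smooth trend on length gave Tgfbr3 -1.07, Tgfbr2 -0.82, Smad4 -0.38 and Smad2 0.15, and they were measured at -0.83, -0.99, -0.51 and 0.03. For Tgfbr1 and Smad3 the trend gave -0.87 for each, and the measured values were -1.23 and -1.38. For Smad7, Tgfb1 and Eng the trend gave -0.11, 0.17 and -0.08, and the measured values were -1.44, -1.21 and -1.07. What sets the lower genes apart in mutant C was not tested.

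The rest of the pathway was read from 119 other genes in 5 lists by role, of which 118 were matched. With all libraries, 68 were tested and 0 passed an adjusted p of 0.05 by edgeR, while 7 had an unadjusted p under 0.05, as did 587 of all 12222 genes (4.8%). DESeq2 called Thbs1 alone and limma-voom called 0. Without mutant C, 2 of 73 fell by edgeR, Thbs1 and Itgb3, and 0 rose, beside 96 of all 12614 genes lower (0.761%). The lists, like the 10 genes, were chosen with earlier results of these data known. Their calls and p-values are therefore a description of these libraries. There 15 had an unadjusted p under 0.05, as did 1306 of all 12614 genes (10.4%). The median log2 change of the lists together was -0.19, and -0.01 without mutant C.

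Latency and activation genes held both of those falls. Thbs1 encodes thrombospondin 1, a platelet and matrix protein that can activate latent TGF-beta. It went from 9.50, 9.21 and 6.45 CPM in the wild-type libraries to 0, 0.143 and 0.744 CPM in mutants C, D and Q, with no overlap of the groups. Its change passed edgeR's test without mutant C (17.2-fold lower, log2 change -4.11, standard error 0.49, adjusted p = 0.012) but not with all libraries (adjusted p = 0.13). Exons of the noncoding gene Gm29233 overlap 208 bases of Thbs1 on the opposite strand.

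Itgb3 encodes the beta 3 integrin chain, a partner of the alpha V chain that binds the latent complex and of the platelet chain CD41. It had 24.6, 29.3 and 26.8 CPM in wild type against 8.92, 17.5 and 15.6 CPM in mutants C, D and Q. The groups did not overlap, and edgeR called it without mutant C (1.64-fold lower, adjusted p = 0.032) but not with all libraries (adjusted p = 0.58). Its alpha partner gene Itgav had a log2 change of -0.05 without mutant C.

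The most abundant carrier transcript was not an LTBP. Nrros, which tethers latent TGF-beta on myeloid cells, stood at 142 to 164 TPM in wild type and 166 and 136 TPM in mutants D and Q, with 58.9 TPM in C. In CPM the mutant libraries (222, 216 and 199 in C, D and Q) lay just above wild type (187 to 194), a log2 change of 0.16 that did not pass edgeR's test (adjusted p = 0.61). Ltbp2, Ltbp3 and Ltbp4 were each at or below 0.17 TPM in every library, and Lrrc32 at or below 0.38 TPM. Ltbp1 was therefore the highest of the LTBP genes in wild type, at 1.35 to 2.34 TPM, and at 0 to 0.06 TPM it was in the range of the others in the mutant. In wild type the integrin chain gene Itgb1 was about as abundant as Nrros, at 149 to 159 TPM. Itgb1 and the matrix protein gene Emilin1 had log2 changes of 0.03 and -0.04 without mutant C, and neither passed.

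**Figure D4:**
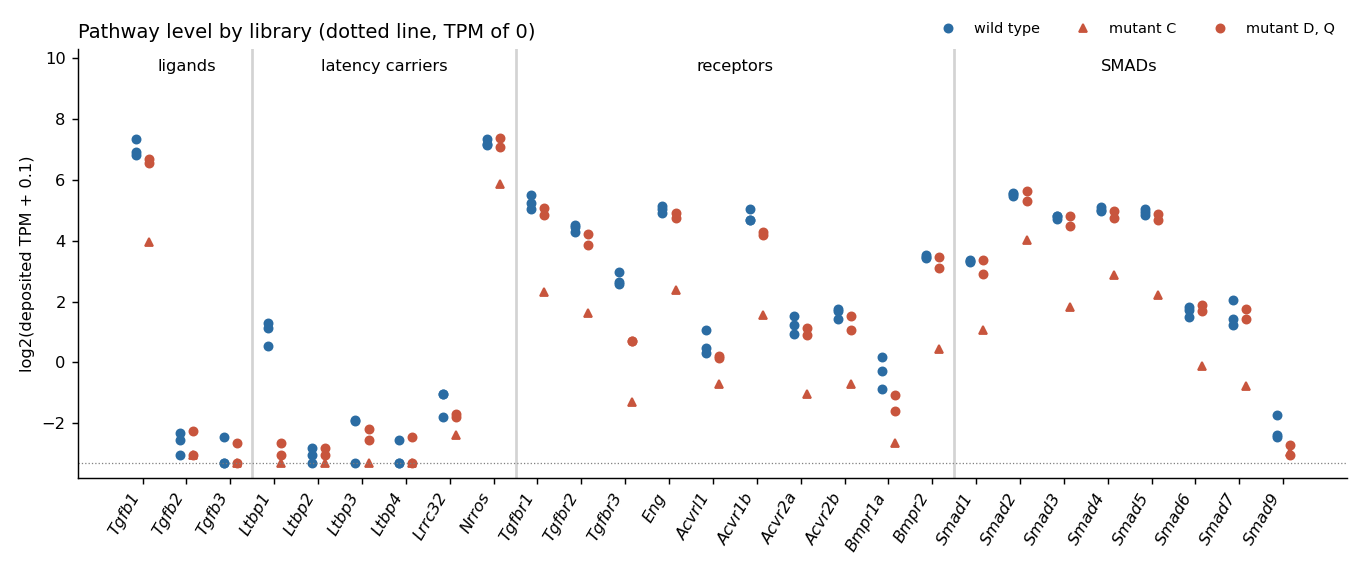
Deposited TPM of ligands, latency carriers, receptors and SMADs in each library, as log2(TPM + 0.1), with the dotted line at a TPM of 0. Ltbp1 drops from 1.35 to 2.34 TPM to the level of Ltbp2, Ltbp3 and Ltbp4, while Nrros stays above all carriers in both genotypes.

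Of 28 other ligand and antagonist genes, 3 were tested with all libraries. Gdf3, a TGF-beta family ligand of early embryos, stood at 2.31, 2.14 and 3.37 CPM in wild type against 1.65, 0.908 and 0.992 CPM in mutants C, D and Q. It did not pass edgeR's test with all libraries (adjusted p = 0.58) or without mutant C (adjusted p = 0.14). Gdf11 and the procollagen protease gene Bmp1 had adjusted p of 0.63 and 0.99.

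None of the 9 tested genes on the list of other receptors and co-receptors passed in either edgeR fit, while 0 and 1 had an unadjusted p under 0.05. Acvr1b, a type I receptor for activin that also signals through SMAD2 and SMAD3, was the most abundant. It had 66.8, 58.6 and 60.1 CPM in wild type against 19.4, 45.5 and 47.3 CPM in mutants C, D and Q, below wild type in each, with a log2 change of -0.42 without mutant C (standard error 0.09, adjusted p = 0.11). The BMP type II receptor gene Bmpr2, the type I receptor gene Bmpr1a and the co-receptor gene Nrp1 had log2 changes of -0.05, -0.40 and 0.04 without mutant C.

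Other SMADs and SMAD regulators gave no call. Of 33 genes 30 were tested, and 0 passed by edgeR with or without mutant C, while 0 and 3 had an unadjusted p under 0.05. The most abundant were Fkbp1a, which binds the resting type I receptor, Strap, a receptor-associated inhibitor, and Usp15, which removes ubiquitin from SMADs. Without mutant C their log2 changes were 0.13, 0.12 and 0.03. Trim33, a SMAD4 ubiquitin ligase and SMAD2/3 partner, had a log2 change of -0.20 without mutant C (adjusted p = 0.37).

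Genes known to respond to TGF-beta in other cells gave no call either. Of 22 genes, 16 were tested with all libraries and 0 passed by edgeR (4 had an unadjusted p under 0.05). Without mutant C, 0 of 17 passed (5 had an unadjusted p under 0.05). The smallest p belonged to Cdkn1c, the CDK inhibitor p57, with 2.19, 2.65 and 2.19 CPM in wild type against 8.04, 3.54 and 5.74 CPM in mutants C, D and Q. All mutant libraries were above wild type, but the adjusted p was 0.58, and 0.24 without mutant C. Id1, an inhibitor of differentiation factors, had 20.2, 14.7 and 20.9 CPM in wild type against 56.2, 24.9 and 29.0 CPM in mutants C, D and Q (adjusted p = 0.58, and 0.29 without mutant C). Tsc22d1 did not pass either (adjusted p = 0.58 and 0.44), nor did the abundant genes Vim and Myc (0.89 and 0.60 with all libraries). The classical target Ccn2 was at or below 0.04 TPM in every library, and Cdkn2b was at 0.

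**Figure D5:**
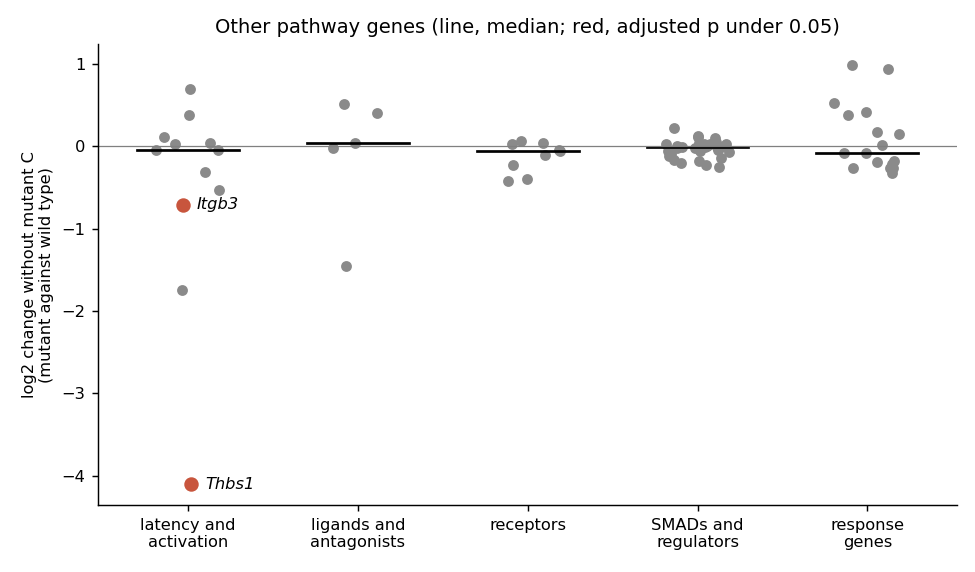
Log2 change without mutant C of the 73 tested pathway genes outside the 10, by role, with the median of each role as a line. Red points passed an adjusted p of 0.05 by edgeR: Thbs1 at -4.11 and Itgb3 at -0.71.

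Markers of other blood cell types fell along with Ltbp1, Tgfbr3 and Thbs1. The marker lists too were chosen with earlier results known, so their calls are a description. Over all genes tested, 0.147% were called lower with all libraries and 0.761% without mutant C. Of 14 megakaryocyte and platelet markers, 10 were tested and 3 fell by edgeR with all libraries (6 without mutant C), with a median log2 change of -2.03. Their summed level was 113 to 130 TPM in wild type and 18.9, 60.9 and 53.4 TPM in C, D and Q, with Itga2b and Gp9 among the most abundant and none at 0 in every library. Of 12 erythroid markers, all were tested and 2 fell (8 without mutant C), and their sum went from 226 to 276 TPM in wild type to 60.3, 105 and 97.1 TPM. Of 10 mast cell markers, 5 were tested and 1 fell (5 without mutant C). Their sum was 142 to 180 TPM in wild type and 7.56 to 9.82 TPM in the mutant, and Cma1, Tpsb2, Mcpt4 and Gzmb were at 0 in every library. The sort was negative for CD41, which Itga2b encodes, and for markers of mature lineages. The part of such cells, or of progenitors that express these genes, in the lower Ltbp1, Tgfbr3, Thbs1 and Itgb3 was not tested. Itgb3 is itself on the megakaryocyte list.

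Markers of cell types outside the blood progenitors gave no call. Endothelial and mesenchymal cells also express Ltbp1, Tgfbr3 and Eng. The endothelial sum was 268 to 270 TPM in wild type and 195, 282 and 260 TPM in C, D and Q, of which Egfl7, also expressed by blood progenitors, made most. Without Egfl7 the sum was 61.5 to 69.7 TPM in wild type and 18.8, 57.5 and 50.4 TPM in C, D and Q. Pecam1, Tek and Kdr were below wild type in every mutant library, with log2 changes without mutant C of -0.33, -0.80 and -0.89 (adjusted p = 0.13, 0.061 and 0.56 by edgeR). Another 2 endothelial markers, Egfl7 among them, were above wild type in every mutant library. Without mutant C, 4 of 11 tested endothelial markers had a log2 change below 0 and 7 above, with a median of 0.07. Of 14 endothelial markers 10 were tested and 0 fell or rose by edgeR, while 2 had an unadjusted p under 0.05. The mesenchymal sum was 13.3 to 14.8 TPM in wild type, 2.70 TPM in mutant C and at least 11.7 TPM in D and Q. Pdgfrb made most of it, at 9.44 to 10.75 TPM in wild type. With all libraries 0 of 4 tested markers passed (0 at an unadjusted p under 0.05). Without mutant C 0 of 5 passed by edgeR, and 2 had an unadjusted p under 0.05. These were Pdgfrb, lower (log2 change -0.287), and Reln, higher (2.78). Reln stood at 0.178 to 0.358 CPM in wild type, 0.526 in D and 3.44 in Q. The macrophage sum was 90.3 to 117 TPM in wild type and 40.5, 122 and 89.5 TPM in C, D and Q, with 0 of 5 tested markers called (0 at an unadjusted p under 0.05). In scaled counts, however, all 5 had a log2 change above 0 (median 0.47). So did all 6 tested without mutant C (median 0.20), where 0 were called and 1 had an unadjusted p under 0.05. The hepatoblast sum ran from 95.1 to 189 TPM in wild type and was 123, 152 and 620 TPM in C, D and Q. Of its 13 markers 12 had a log2 change above 0 (median 2.79), and all 13 without mutant C (median 2.60). None was called in either fit (8 and 9 at an unadjusted p under 0.05). The part of these cells in the values of the TGF-beta genes was not tested.

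The genes whose log2 CPM followed Ltbp1 most closely over the 6 libraries were Dach1, Treml1, Ctse, Cnr2 and Cttn, out of 10468 genes with a mean of at least 50 counts. Pearson's r was 0.996, 0.995, 0.993, 0.992 and 0.991, a description over libraries that fall into the wild-type and mutant groups. In each the 3 wild-type values lay close together and above the mutant values. Dach1, for example, had 10.4, 10.1 and 10.6 CPM in wild type and at most 1.34 CPM in a mutant library, and Cttn had 8.35, 8.58 and 8.94 against 6.06, 6.31 and 6.20 CPM. These genes were picked for this correlation, so they shared the gap between the groups by choice, and its size differed. Within wild type Ltbp1 itself was less even, at 6.00, 3.91 and 6.10 CPM in A, F and L.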

How the data were processed

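Reads were processed with RSEM 1.2.18, Bowtie 1.1.1 and CASAVA 1.8.2 on mm10, per the submitters' processing notes. Strandedness, read layout and annotation release: not given in the sources used here. Per gene, expected counts were deposited without normalization, and TPM values were deposited by the authors as length-corrected abundances, per the file headers. The gene length column, per the file headers, was used to describe transcript choice. Symbols were matched through a table of Ensembl identifiers, which named 24448 of 24815.

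Rounded counts went into edgeR 4.0.16 under R 4.3.3 (filterByExpr with a minimum count of 10, TMM, quasi-likelihood F test, Benjamini-Hochberg over all genes tested, threshold 0.05). A standard error is the size of the log2 change over the square root of the F statistic. DESeq2 1.42.0, limma-voom (limma 3.58.1), other scaling, no filter, a loess offset on gene length (span 0.3) and leaving out each library were tried.

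The 10 genes and all lists were chosen with earlier results of these data known. Pathway genes were named if past the threshold in either fit, among the 3 most abundant of their list, or with 1 of the 2 smallest p. From each marker list the 3 most abundant were eligible. Genes like Ltbp1 were the 5 with the highest Pearson correlation (log2 CPM, prior count 2). Tgfb2, Tgfb3, Ltbp2, Ltbp3, Ltbp4, Lrrc32, Itgav, Ccn2 and Cdkn2b were named after their values were seen. So were Tek, Kdr, Reln, Kit and Myb, and the markers at 0. Gdf1 was not analysed here.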

Additional observations from a re-analysis of the deposited data

How the results depend on the processing

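No paired analysis was run, because the replicate letters differ between the genotypes and the labels state no pairing. The number of genes called moved from 19 to 36 without a filter on low counts, 142 by DESeq2, 32 by limma-voom and 58 with a length trend offset, and ran from 0 to 106 when 1 library was left out. The 106 came without mutant C, and 0 came without any other library (294 to 1611 at an unadjusted p under 0.05). Pathway genes past the threshold numbered 0 with all libraries, 1 by DESeq2 and 1 with the length trend offset (Thbs1 in both), and 0 to 2 when 1 library was left out. For Thbs1 the adjusted p over these settings ran from 3.4e-08 to 0.69, and for Itgb3 from 0.032 to 0.84.

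Changes of the 10 genes stayed below 0 under all 13 settings for Ltbp1 (-7.47 to -1.49), Tgfb1, Tgfbr1, Tgfbr2, Tgfbr3 (-2.70 to -1.80), Eng and Smad4. Smad3 and Smad7 were above 0 (0.04 each) without mutant C alone. Smad2 was below 0 on the TPM scale alone, at -0.54 with a pseudocount of 0.1 and -0.53 with 1. The log2(TPM + 1) scale gave Ltbp1 -1.49 and the log2(TPM + 0.1) scale -3.99, since a pseudocount understates the change of a low gene.

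Small changes that did not pass by any tool turned direction. With the length trend offset Itgb1 was at 0.19, Emilin1 0.033, Bmpr2 0.11, Nrp1 0.31, Trim33 0.0073 and Fkbp1a -0.032. When 1 library was left out, Itgb1 ran from -0.10 to 0.028 and Nrp1 from -0.31 to 0.0435, both above 0 only without mutant C. Vim ran from -0.0852 (without mutant C) to 0.11, Bmp1 from -0.18 (without wild type F) to 0.12, and Usp15 from -0.00031 (without wild type A) to 0.0595. Ltbp1 held only 3 counts in all in the mutant, so counting error alone leaves its ratio as uncertain as the counting interval given above.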
